A study of Mus musculus with 10 samples.

Results

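The comparison described here is between basal cells and Sca-1- luminal cells, 2 epithelial populations sorted from mouse prostate. Its members were every library labelled Basal (2 libraries) and every library labelled Luminal (3 libraries), 5 of the 10 libraries in the study. All mice were C57BL/6 animals aged 8 to 12 weeks, and no transgene, deletion or drug treatment is named for any group. Dissociated cells that lacked a set of lineage markers (Lin-) were sorted on surface proteins: basal cells by little CD24 and much CD49f, and luminal cells by much CD24, little CD49f and no Sca-1. CD24 is encoded by Cd24a, CD49f (integrin alpha 6) by Itga6 and Sca-1 by Ly6a. The other 5 libraries are 3 of Sca-1+ luminal cells and 2 of stromal cells. They enter below through the choice of genes to test, through the shared estimate of spread and as a reference for other cell types. A protocol for culturing dissociated cells stands beside every library, and it is not stated if these sorted cells went through culture. Nor is it stated if the libraries of a group are from different mice, so every p-value measures only the spread between these libraries, which may be technical.

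The prostate epithelium has an outer layer of basal cells, which sit on the basement membrane, and an inner layer of luminal cells, which face the duct and release the prostatic secretion. Basal cells are known by keratins 5 and 14 and by the transcription factor p63 (Trp63), which basal layers of stratified and glandular epithelia need. Luminal cells are known by keratins 8 and 18 and by secretory proteins under the control of androgen, of which probasin (Pbsn) is the classical one in the mouse.

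Basal libraries held more RNA for keratins of the basal layer, for laminin, integrins and other proteins that hold cells to the basement membrane, for glycolysis and ribosome production, and for ligands of the EGF receptor, Notch and activin pathways. Krt14, the partner of keratin 5, was at 1956 and 1866 FPKM in basal libraries and at 47.4, 55.4 and 7.35 FPKM in luminal ones (log2 change 6.07, limma adjusted p = 0.00167). Luminal libraries held more RNA for secreted proteins, for the apparatus that folds and exports them, for a set of lineage factors (Spdef, Hoxb13 and Gata2) and for Egf. Several genes taught as luminal markers, Krt8 and Krt18 among them, did not differ beyond the spread between libraries.

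RNA levels are in FPKM, which divides the fragments of a transcript by its length and by the mapped total, summed over the transcripts of a gene. Changes are differences of log2(FPKM + 1), basal minus luminal, a scale that understates the change of low genes. Of 24538 genes, 12433 reached 1 FPKM in at least 2 of the 10 libraries and were tested. With only the 5 basal and luminal libraries, 11213 genes would be tested. At a limma adjusted p (Benjamini-Hochberg, over all genes tested) under 0.05, 5732 genes were called, which is 46.1% of those tested: 2505 (20.1%) were higher and 3227 (26.0%) lower in basal libraries. In 8677 genes (69.8%) the values of the 2 basal libraries did not overlap those of the 3 luminal libraries. These shares are the background against which each gene group below is to be read, together with the median change over all genes tested, -0.05. Among called genes the mean was at least 4-fold higher in basal libraries for 1027 and at least 4-fold higher in luminal libraries for 1763. In bulk libraries, fewer cells of a type and less RNA per cell cannot be told apart.

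**Figure D1:**
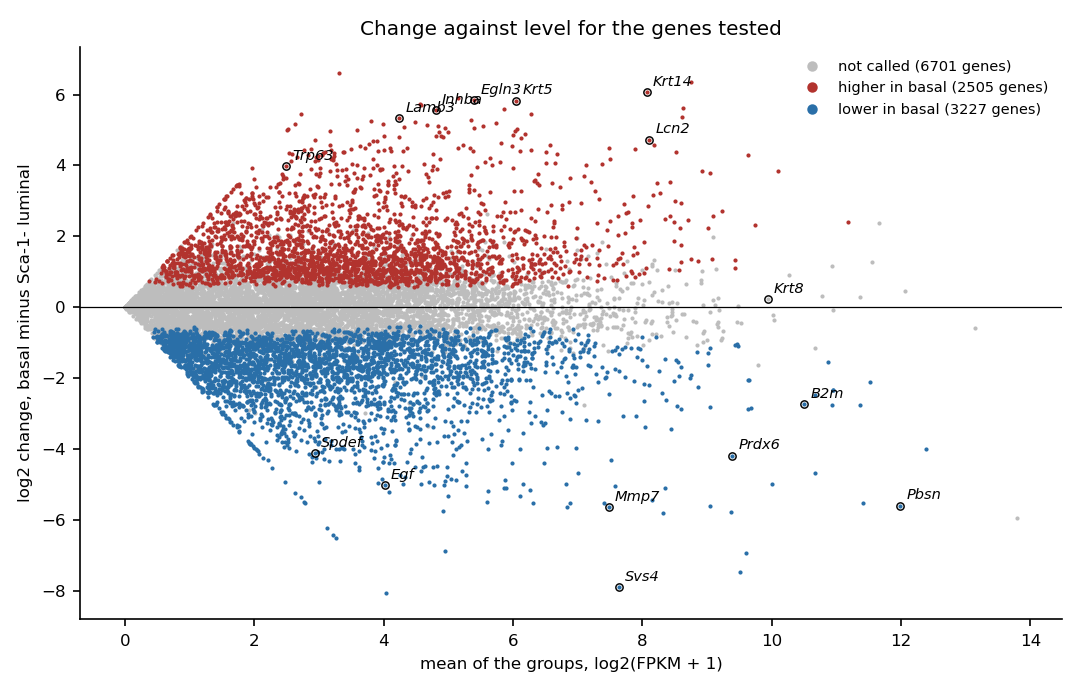
Log2 change, basal minus Sca-1- luminal (vertical axis), against the mean of both groups in log2(FPKM + 1) (horizontal axis) for the 12433 genes tested. Red points were called higher in basal libraries, blue points lower and grey points were not called, and circles mark some of the genes described in the text, of which Krt14 (6.07) is the highest circle and Svs4 (-7.9) the lowest.

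The 5 libraries held 22.5 to 24.7 M (mega) mapped fragments, as read from the steps between low FPKM values, and 9785 to 10660 genes at 1 FPKM or more. The share of summed FPKM in the 10 most abundant transcripts was 11.3% and 11.8% for basal and 36.3% to 37.4% for luminal libraries, and mitochondrial transcripts took 1.44% and 1.06% against 3.69% to 5.11%. Over genes, log2 values of the 2 basal libraries correlated at 0.975, while each basal library correlated with luminal replicates 1 and 2 at 0.754 to 0.78 and with luminal replicate 3 at 0.665 and 0.669 (a description, since genes are not independent). Luminal replicate 3 therefore stood farthest from the basal libraries. Basal replicates 1 and 2 differed in stress-induced genes: Hspa1a, the inducible HSP70 chaperone, was at 783 and 60.8 FPKM and the early-response factor Egr1 at 1046 and 275 FPKM, with all 3 luminal values of Hspa1a between them (504, 267 and 726).

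The labels were first set against marker genes. Over the 19 tested of 25 basal identity genes, the median gene stood in luminal replicates 1, 2 and 3 at 2.98%, 3.25% and 0.942% of its basal mean. Over 20 prostate secretory genes, the median gene stood in the basal libraries at 2.3% and 3.27% of its luminal mean, and in the 2 stromal libraries at 2.69% and 4.45%. Fibroblast genes summed to 1007 and 910 FPKM in the basal libraries, 5.12% and 4.63% of the stromal mean, and to 222, 171 and 309 FPKM in the luminal ones, 0.87% to 1.57%. One of 19 fibroblast genes was called higher in basal libraries, decorin (Dcn, a matrix proteoglycan), at 655 and 459 FPKM against 84, 69.2 and 105 (log2 change 2.68, limma adjusted p = 0.0321), and it lost the call in 7 of 15 alternative settings. With only the 5 libraries in the fit, 8 of the fibroblast genes were called higher, and 10 without the Sca-1+ luminal libraries. In Sca-1+ luminal replicates 1, 2 and 3 the fibroblast genes summed to 96.04%, 42.18% and 7.12% of the stromal mean, a spread that enters the shared estimate. The collagen gene Col1a1 was at 7.16 and 8.77 FPKM in basal and at 3.42, 1.67 and 5.68 FPKM in luminal libraries. Smooth muscle genes summed to 279 and 363 FPKM in basal, 65.2 to 85.7 FPKM in luminal and 230 and 391 FPKM in stromal libraries. Of 8 tested, 1 (Smtn) was higher in basal libraries and none was lower. The smooth muscle myosin Myh11 was at 3.63 and 5.94 FPKM in basal libraries against 3.71, 3.5 and 9.86. Endothelial genes summed to 13.6 and 20.5 FPKM against 17.8 to 31.4. Leukocyte genes summed to 27.3 and 41.8 FPKM in basal and 16.6 to 63.3 FPKM in luminal libraries, with none of the 9 tested called. Erythroid genes went the other way, with 7.69 and 74.3 FPKM in basal and 287, 214 and 1333 FPKM in luminal libraries, and all 5 tested genes were lower in basal libraries (1 without basal replicate 1). Glia and nerve genes summed to 124 and 97.3 FPKM in basal libraries against 39.8, 38.1 and 48.4, and 3 of 9 tested, the myelin genes Mbp and Pmp22 among them, were higher (0 without basal replicate 1, 1 without basal replicate 2 or luminal replicate 3). Neuroendocrine genes summed to only 4.76 and 7.02 FPKM against 12, 13.1 and 13.9, and 2 of 3 tested, Chga and Calca, were lower. Calca lost the call in 8 and Chga in 1 of the 14 alternative settings in which they were tested. The part of these other cell types in the changes below was not tested.

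Most lineage markers fell into 3 groups. Genes of the basal layer were far higher in basal libraries, and luminal factors and secretory genes were far lower. For a set of textbook luminal genes, among them Krt8, Krt18 and the pioneer factor gene Foxa1, no difference was found. The luminal identity genes Krt7, Cdh1 and Cd9 went the other way and were higher in basal libraries. Krt5 (chr15:101707070-101712891, mm10), which pairs with keratin 14 in basal filaments, was at 382 and 535 FPKM in basal and at 9.02, 14.4 and 2.29 FPKM in luminal libraries. All basal values lay far above all luminal ones (log2 change 5.83 ± 0.725 SE, limma adjusted p = 0.000231). Trp63 (chr16:25683765-25892088) was at 40.7 and 8.1 FPKM in basal and at 0.616, 0.0282 and 0.114 FPKM in luminal libraries. The basal replicates of Trp63 differed several-fold from each other, yet the lower one was still above every luminal library (log2 change 3.99, limma adjusted p = 0.000321). The table holds 10 Trp63 transcripts from a pair of start sites: the 4 that start at position 25683765 were listed at 0 in all 10 libraries, and all Trp63 signal came from the 6 that start downstream, at position 25801916. The zinc-finger factor Snai2 showed the same order of basal replicates as Trp63, 55.9 and 12.7 FPKM, against 1.13, 0.579 and 0.809 in luminal libraries.

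Of the 19 basal identity genes tested, 18 were higher in basal libraries, none was lower and Barx2 was not called, and their median change was 4.47; genes of this list that are low outside basal cells passed the filter on low values only where basal cells express them. P-cadherin (Cdh3) was at 53.9 and 44.2 FPKM against 1.02, 0.735 and 0.135 (log2 change 4.97, limma adjusted p = 9.09e-05). Dlk2, a membrane protein of the Notch-related delta-like family, was at 14.8 and 6.15 FPKM in basal libraries and listed at 0 in all 3 luminal libraries. Among 19 keratins tested, 10 were higher and 1, Krt78, was lower (not without basal replicate 2), with a median change of 2.19. Besides the keratins of the basal layer, those described from hair follicles and injured epidermis were high: Krt16 at 93.8 and 88.4 FPKM against 4.2, 3.77 and 0.487, and Krt75 at 43.2 and 86 FPKM against 1.02, 2.62 and 0. Both had non-overlapping groups, with luminal replicate 3 lowest.

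The simple-epithelial keratins Krt8 and Krt18 did not separate the populations. Krt8 was at 607 and 1234 FPKM in basal and at 746, 2133 and 256 FPKM in luminal libraries, and its partner Krt18 at 1554 and 2004 FPKM against 1877, 3818 and 902. The groups overlapped for both, and the log2 changes were 0.22 (limma adjusted p = 0.886) and -0.08 (limma adjusted p = 0.951). Within the luminal group both keratins were highest in replicate 2 and lowest in replicate 3, a spread wider than the difference between groups. Of 20 luminal identity genes, 9 were lower in basal libraries, 8 were not called and 3 were higher, namely the keratin gene Krt7 (201 and 320 FPKM against 27.3, 39.2 and 8.87), E-cadherin (Cdh1) and the tetraspanin Cd9; without basal replicate 2 only 1 was called higher. Cdh1 was at 664 and 758 FPKM against 150, 236 and 54.8 (log2 change 2.5, limma adjusted p = 0.0156; lost without either basal library). Cd9 was at 1176 and 1482 FPKM against 240, 253 and 181 (log2 change 2.56, limma adjusted p = 0.000389).

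The genes of the sort proteins were chosen for by the gates and are given here without a test. Cd24a is still counted among the luminal identity genes that were lower, and it lost that call in 11 of 15 alternative settings. Itga6 was at 122 and 140 FPKM in basal and at 27.3, 40.2 and 9.86 FPKM in luminal libraries, and Cd24a at 226 and 199 against 743, 838 and 529 FPKM, both in the direction of their gate without overlap. Ly6a, on which the luminal cells but not the basal cells were gated, was at 421 and 473 FPKM against 54.3, 82.8 and 19.9.

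**Figure D2:**
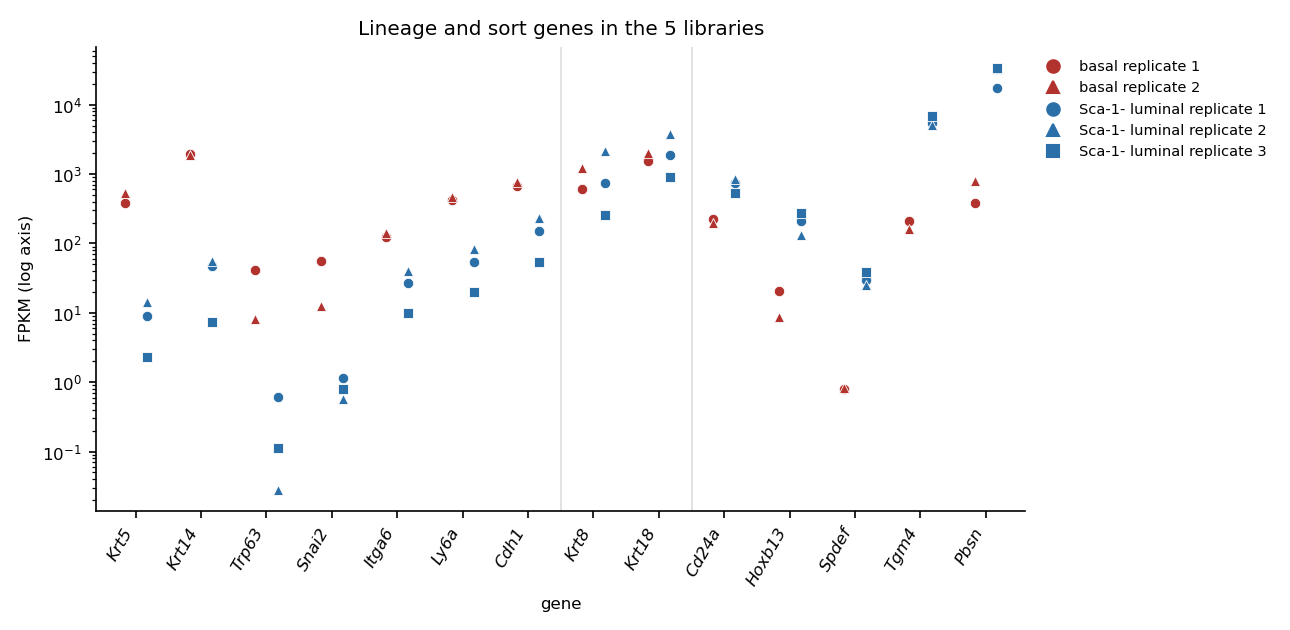
FPKM on a log axis of 14 lineage and sort genes in each of the 5 libraries, basal in red and Sca-1- luminal in blue, one symbol per library. Genes to the left are higher in both basal libraries, genes to the right are lower, and for Krt8 and Krt18 in the middle the symbols of both groups lie at like levels.

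Lineage transcription factors were called in both directions, at shares near those of all genes tested (20.1% higher and 26.0% lower). Of 40 tested, 10 were higher and 10 lower in basal libraries, with a median change of 0.19. Ets1, a factor of the ETS family, was at 96.9 and 87.5 FPKM against 5.08, 4.16 and 1.2 (log2 change 4.5, limma adjusted p = 0.000219). Each basal value was many times every luminal one. Runx1 (25.8 and 31.5 FPKM against 4.37, 3.76 and 1.48) and Tfap2c (20.2 and 16.8 FPKM against 2.15, 2.31 and 2.77) rose as well.

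On the luminal side, Spdef, an ETS factor of secretory epithelia, was at 0.805 and 0.821 FPKM in basal and at 30, 24.8 and 39.1 FPKM in luminal libraries (log2 change -4.13, limma adjusted p = 2.21e-05). Hoxb13, a homeobox factor of the prostate epithelium, was at 20.6 and 8.72 FPKM against 207, 133 and 277, and Gata2, a zinc-finger factor of luminal cells, at 2.97 and 2.79 FPKM against 46.7, 37.8 and 64.1. In all 3 genes the lowest luminal value exceeded the highest basal one several-fold. Creb3l4, a membrane-bound factor of secretory cells, fell too (1.3 and 0.284 FPKM against 23.8, 13.7 and 23.1). By contrast Foxa1, a pioneer factor that opens chromatin for steroid receptors, was at 155 and 98.6 FPKM against 87.4, 61.3 and 85.5 (log2 change 0.67, limma adjusted p = 0.265).

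The sequence just before the start of Pbsn and of Krt5 is shown because these genes mark the opposite ends of the comparison; each run is the 250 bases before the RefSeq start (GRCm38.p6), written 5′ to 3′ on the minus strand, on which all genes shown in this way lie. Windows were searched on both strands for AGAACA, the half-site of hormone response elements for steroid receptors such as those for glucocorticoid and progesterone. They were also searched for the p53-family half-site, the motif of p53, p63 and p73, only in its form with the core CATG. Other forms of this half-site were not searched. In the Pbsn window (chrX:77853501-77853750) the capitals mark AGAACA, found once, 95 bases before the start. In the Krt5 window (chr15:101712906-101713155) they mark a p53-family half-site of this form, also found once and 95 bases before the start.
Pbsn: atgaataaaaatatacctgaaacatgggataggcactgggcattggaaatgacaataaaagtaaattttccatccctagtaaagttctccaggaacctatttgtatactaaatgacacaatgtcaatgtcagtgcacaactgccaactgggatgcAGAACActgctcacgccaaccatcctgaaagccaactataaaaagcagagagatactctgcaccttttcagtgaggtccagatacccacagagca
Krt5: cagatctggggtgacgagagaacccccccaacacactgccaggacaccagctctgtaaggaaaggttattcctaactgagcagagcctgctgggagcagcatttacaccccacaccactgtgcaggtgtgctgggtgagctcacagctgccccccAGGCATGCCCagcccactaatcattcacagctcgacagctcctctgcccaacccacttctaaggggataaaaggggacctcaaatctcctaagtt
Over all 32851 windows of this kind, 16.1% hold AGAACA and 1.6% hold a p53-family half-site with the core CATG. Of the 12 prostate secretory genes with a window, 3 held AGAACA (18.2% of all 27025 genes with a window did). Of 16 basal identity genes with a window, 1 held the p53-family half-site with this core (1.9% of all genes did). A match describes the letters of this window only.

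Genes that fasten epithelial cells to the basement membrane were high in basal libraries. Of the 9 genes of the hemidesmosome and its laminin, 7 were higher, Itga6 of the sort among them. Plec and Cd151 (2 genes) were not called, and the median change was 3.98. Chains of the anchoring laminin were among them. Its alpha chain Lama3 was at 68.2 and 50.3 FPKM against 1.69, 1.45 and 1.48 (log2 change 4.55, limma adjusted p = 1.11e-05). The beta chain Lamb3 was at 128 and 106 FPKM against 3.05, 1.89 and 1.09 (log2 change 5.34 ± 0.303 SE, limma adjusted p = 7.9e-06). Both chains were separated between groups without overlap, and the receptor partner Itgb4 stood at 62.6 and 75.6 FPKM against 3.81, 4.32 and 2.41.

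Of 16 matrix integrins tested, Itga6 of the sort among them, 10 were higher, none was lower and the median change was 2.12. The collagen receptor subunit Itga2 was at 64.5 and 100 FPKM against 1.32, 2.47 and 0.194 (log2 change 5.26, limma adjusted p = 0.000184). Itga3, which binds laminin, was at 295 and 323 FPKM against 13.1, 20.6 and 9.27 (log2 change 4.41, limma adjusted p = 0.000124). Itgb6, a subunit of the integrin that activates latent TGF-beta, was at 101 and 203 FPKM against 3.98, 8.47 and 1.15, and the common subunit Itgb1 at 459 and 458 FPKM against 64.9, 59.6 and 41.9. Basement membrane genes rose in 8 of 17 (13 without the Sca-1+ luminal libraries) and fell in 1, Col4a6, whose call was lost in 5 of 15 alternative settings; their median change was 2.21. The collagen IV gene Col4a1 was at 75.2 and 80.7 FPKM against 4.97, 3.79 and 4.75 (log2 change 3.85, limma adjusted p = 0.00386).

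Junction genes were called in both directions, as were all genes tested (20.1% higher and 26.0% lower). Plakophilins, the plaque proteins of desmosomes, moved in opposite directions: Pkp1 was at 28.2 and 24.2 FPKM in basal and at 0.728, 0.427 and 0.207 FPKM in luminal libraries (log2 change 4.24, limma adjusted p = 2.62e-05), while Pkp2 was at 2.82 and 3.35 FPKM against 26.3, 21.6 and 11.1 (log2 change -2.26, limma adjusted p = 0.00137). Claudins, which seal tight junctions, did so too. Cldn1 was at 461 and 425 FPKM against 14.5, 21.6 and 1.95 (log2 change 5.46, limma adjusted p = 0.000919). Cldn10 was at 5.96 and 8.77 FPKM against 174, 124 and 238 (log2 change -4.39, limma adjusted p = 5.86e-05), and Cldn8 at 4.23 and 2.55 FPKM against 92.7, 51.8 and 139. Cldn3 was at 14.6 and 46.6 FPKM against 400, 865 and 225 (log2 change -3.97, limma adjusted p = 0.00308). The groups did not overlap for any of these 4 claudins, whereas Cldn4, at 2065 and 3072 FPKM against 1285, 2806 and 400, overlapped and was not called. Of 17 tight junction genes, 3 were higher (1 without either basal library) and 6 lower, with a median of -0.08 that turned to 0.02 under median-of-ratios scaling and to 0.07 under quantile normalization. Of 15 desmosome and cadherin genes, 6 were higher (3 without either basal library, 10 with only the 5 libraries in the fit or without the Sca-1+ ones) and 2 lower, with a median of 1.19.

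Actin-binding genes were higher in 11 of 19 tested, with none lower and a median of 1.84, but Acta2, Myh11 and Cnn1 of smooth muscle were not among them. Filamin A (Flna), which crosslinks actin, was at 271 and 381 FPKM against 7.64, 19.8 and 6.74 (log2 change 4.85, limma adjusted p = 3.02e-05). The tropomyosin Tpm1 was at 1529 and 2093 FPKM against 146, 261 and 55.1 (log2 change 3.79, limma adjusted p = 0.000899). Both were several-fold above the luminal range. Smooth muscle actin (Acta2) was at 26.9 and 49.4 FPKM against 19.8, 15.7 and 31, with overlapping groups (log2 change 0.75, limma adjusted p = 0.553).

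Genes of secretory products were among those with the largest falls. All 16 called of the 20 prostate secretory genes tested were lower in basal libraries, with a median change of -4.82 over the 20. Pbsn (chrX:77837898-77853500) was at 386 and 787 FPKM in basal and at 17563, 32807 and 33704 FPKM in luminal libraries (log2 change -5.6 ± 0.704 SE, limma adjusted p = 0.000241). Transglutaminase 4 (Tgm4), which crosslinks seminal proteins into the copulatory plug, was at 207 and 159 FPKM against 5498, 5032 and 6819 (log2 change -4.98, limma adjusted p = 2.48e-05). Every luminal value of both genes was more than 10 times every basal one. Spink1, a secreted trypsin inhibitor and the most abundant gene of the list, was at 1504 and 2133 FPKM against 128871, 122179 and 84219. Its log2 change of -5.94 did not pass the test with all 10 libraries (limma adjusted p = 0.0803), and it passed with only the 5 libraries in the fit and without the Sca-1+ luminal libraries. The chaperone-like secreted protein clusterin (Clu) was not called, with 180 and 378 FPKM against 520, 546 and 272.

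Mmp7, Ren1 and Rnase1 were among the 15 largest falls. Mmp7 (matrilysin, an epithelial protease) was at 19.3 and 28.7 FPKM in basal and at 843, 1439 and 1522 FPKM in luminal libraries (log2 change -5.65, limma adjusted p = 5.96e-05). Renin (Ren1) was at 16.9 and 15.2 FPKM against 584, 794 and 1059 (log2 change -5.53, limma adjusted p = 2.03e-05). The pancreatic-type ribonuclease Rnase1 was at 23.9 and 23.6 FPKM against 1118, 1190 and 1152 (log2 change -5.54, limma adjusted p = 1.18e-05). Libraries within each group were close together for these 3 genes, and the groups lay far apart. Seminal vesicle genes were lower in 6 of 8 tested, but the luminal libraries themselves were spread: Svs4 was at 9.73 and 5.88 FPKM in basal libraries and at 2467, 327 and 10736 FPKM in luminal replicates 1, 2 and 3. The summed seminal vesicle list followed the same order, 18929, 1405 and 42693 FPKM, against 114 and 80.8 FPKM in the basal libraries.

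**Figure D3:**
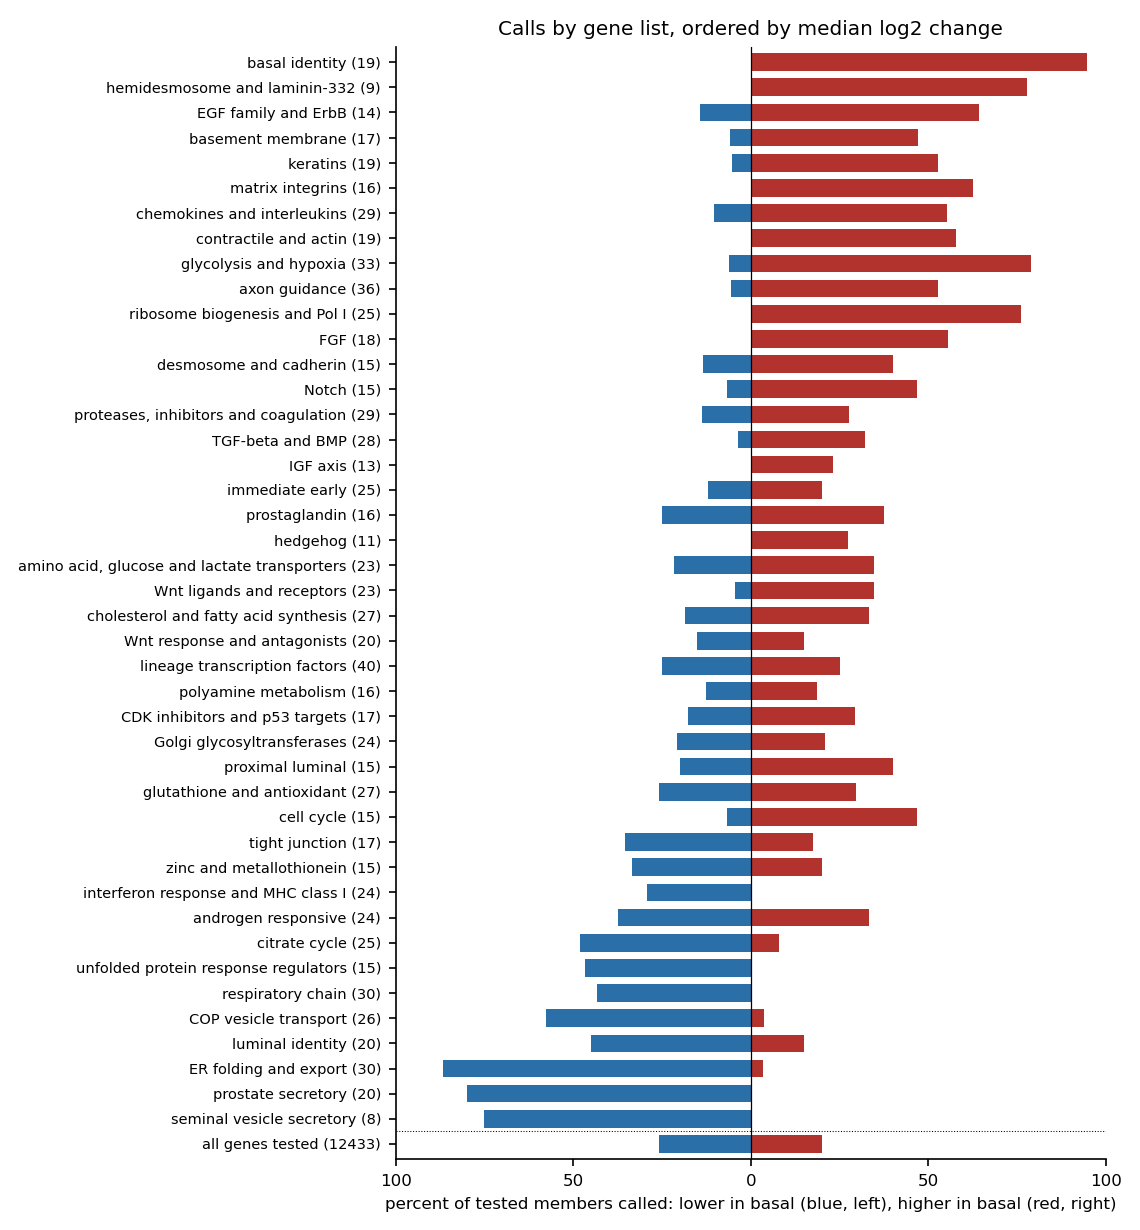
Percent of the tested members of each gene list that were called higher (red, to the right) or lower (blue, to the left) in basal libraries, with the number tested in parentheses. Lists are ordered by their median log2 change, from basal identity (4.47) to seminal vesicle secretory genes (-5.3), and the bottom bar gives all 12433 genes tested (20.1% higher, 26.0% lower).

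Genes listed as androgen responsive did not move one way: of 24 tested, 8 were higher (4 without basal replicate 1) and 9 lower, with a median of -0.47. Fkbp5, a co-chaperone of steroid receptors, was at 16.2 and 14 FPKM against 60.9, 31.2 and 66.7 (log2 change -1.67, limma adjusted p = 0.00172). Tmprss2, a membrane protease, was at 9 and 7.03 FPKM against 62.8, 41.9 and 71.9 (log2 change -2.7, limma adjusted p = 0.00139). Both were lower in each basal library than in any luminal one. In the other direction, Ndrg1, which hypoxia also induces, was at 338 and 396 FPKM against 15.7, 19.7 and 4.55 (log2 change 4.88, limma adjusted p = 0.000395). Pmepa1, also a target of TGF-beta, was at 51.5 and 61.3 FPKM against 3.88, 4.09 and 1.47, and the polyamine enzyme Odc1 at 295 and 439 FPKM against 46, 56 and 37.8.

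The machinery that folds and exports secreted proteins was lower in basal libraries nearly throughout. Of 30 genes for folding and export at the endoplasmic reticulum (ER), 26 were lower, 3 were not called and 1 was higher, with a median change of -1.93. The disulfide isomerase Pdia6 was at 131 and 155 FPKM against 995, 1004 and 1147 (log2 change -2.87, limma adjusted p = 0.000124). The translocon subunit Sec61b was at 33.4 and 43.6 FPKM against 301, 365 and 396 (log2 change -3.17, limma adjusted p = 5.33e-05), and Creld2, induced by ER stress, at 21.4 and 28.9 FPKM against 396, 487 and 328. The groups were far apart for all 3. The oxidases that recharge the disulfide isomerases were split: Ero1l was at 193 and 224 FPKM against 11.8, 14.4 and 6.1 (log2 change 4.22, limma adjusted p = 0.000514), and Ero1lb at 1.44 and 0.797 FPKM against 9.79, 5.77 and 13.2 (log2 change -2.27, limma adjusted p = 0.000435). The chaperone BiP (Hspa5), at 1148 and 1008 FPKM against 2971, 2660 and 1723, was not called (log2 change -1.15, limma adjusted p = 0.0887), though it was called lower with only the 5 libraries in the fit and without the Sca-1+ luminal libraries.

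Of 15 regulators of the unfolded protein response, 7 were lower and none was higher (median -0.7). The ER stress kinase gene Eif2ak3 was at 2.97 and 1.99 FPKM against 28.4, 16.5 and 16 (log2 change -2.58, limma adjusted p = 0.000134), and Ddit3 at 21.5 and 25.7 FPKM against 201, 139 and 133. Atf4, the factor downstream of that kinase, stood at 343 and 346 FPKM against 408, 361 and 305, with overlapping groups. In vesicle transport between ER and Golgi, 15 of 26 genes were lower and 1, the coat subunit Sec24b, was higher (median -0.93). The cargo receptor Tmed3 was at 21.7 and 27.2 FPKM against 567, 619 and 768 (log2 change -4.68, limma adjusted p = 1.15e-05). The coat subunit Copz2 was at 20.9 and 18.8 FPKM against 249, 228 and 247 (log2 change -3.54, limma adjusted p = 2.22e-05), while its paralog Copz1 was at 45.1 and 49.7 FPKM against 101, 86 and 106 (log2 change -1.02, limma adjusted p = 0.0118; lost in 2 of 15 alternative settings). Of 24 Golgi glycosyltransferases, 5 were higher, 5 lower and 14 not called, shares near those of all genes tested. The sialyltransferase St3gal4 was at 28.2 and 46.5 FPKM against 1.68, 2.06 and 0.401, and the fucosyltransferase Fut2 at 0.294 and 0.543 FPKM against 17.8, 14 and 26.7.

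Most genes listed for glycolysis and the hypoxia response were higher in basal libraries, and the called genes of the respiratory chain were lower. Of 33 genes of glycolysis and the hypoxia response, 26 were higher, 2 lower and 5 not called, with a median change of 1.76. Egln3, the oxygen-sensing prolyl hydroxylase that hypoxia induces, was at 289 and 264 FPKM against 7.94, 7.84 and 0.427 (log2 change 5.84, limma adjusted p = 0.000232). Hif1a, the oxygen-regulated factor itself, was at 300 and 305 FPKM against 35.1, 44.6 and 10.5 (log2 change 3.51, limma adjusted p = 0.0005). For both, luminal replicate 3 was lowest and the groups did not overlap. The glucose transporter Slc2a1 was at 751 and 589 FPKM against 115, 179 and 35.6 (log2 change 2.86, limma adjusted p = 0.00304), the phosphofructokinase Pfkp at 91.5 and 80.1 FPKM against 4.76, 4.51 and 1.11 (log2 change 4.41, limma adjusted p = 0.000301), and carbonic anhydrase Car9 at 36.5 and 38 FPKM against 0.919, 1.43 and 0.351 (log2 change 4.37, limma adjusted p = 0.000124). Ankrd37 was at 14.8 and 13.8 FPKM in basal libraries and listed at 0 in all luminal ones. The 2 lower genes, Pfkm and Aldoc, lost the call in 5 of 15 and 7 of 14 alternative settings in which they were tested.

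The promoter windows of Egln3 and Ankrd37 are shown because these genes rose with the glycolytic genes. Capitals mark ACGTG, the core of the hypoxia response element and also part of the E-box CACGTG, searched on both strands. It lies 229 bases before the start of Egln3 (chr12:54203875-54204124). In Ankrd37 (chr8:45999851-46000100) it occurs at 241 and at 6 bases before the start.
Egln3: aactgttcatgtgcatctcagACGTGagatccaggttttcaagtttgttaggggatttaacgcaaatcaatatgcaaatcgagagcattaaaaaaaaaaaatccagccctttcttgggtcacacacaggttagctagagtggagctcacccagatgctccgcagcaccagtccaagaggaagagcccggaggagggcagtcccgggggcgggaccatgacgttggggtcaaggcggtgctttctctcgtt
Ankrd37: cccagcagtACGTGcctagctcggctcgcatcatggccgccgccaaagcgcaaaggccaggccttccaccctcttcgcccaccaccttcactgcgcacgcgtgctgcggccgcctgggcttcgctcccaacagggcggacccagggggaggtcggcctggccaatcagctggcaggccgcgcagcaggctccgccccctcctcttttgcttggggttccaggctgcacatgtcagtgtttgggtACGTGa
Of 31 genes of the glycolysis and hypoxia list with a window, 19 (61.3%) held ACGTG, against 18.5% of all 27025 genes with a window; several members are listed because they are known hypoxia targets, so the share describes the list and was not tested.

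Of 30 respiratory chain genes, 13 were lower, none was higher and 17 were not called (median -0.73). This count fell to 4 without basal replicate 1 and to 6 without basal replicate 2, and it was 20 with only the 5 libraries in the fit. Ndufa1, a complex I subunit, was at 199 and 225 FPKM against 912, 1169 and 984 (log2 change -2.26, limma adjusted p = 0.000368), with every luminal value several-fold higher. The ATP synthase subunit Atp5b did not follow: it was at 589 and 553 FPKM against 561, 520 and 559 (log2 change 0.06, limma adjusted p = 0.891). Of 25 citrate cycle genes, 12 were lower and 2 higher (5 under median-of-ratios scaling, 4 under quantile normalization and 4 with only the 5 libraries in the fit), with a median of -0.49. Cytosolic malate dehydrogenase Mdh1 was at 40.7 and 31.1 FPKM against 201, 188 and 226 (log2 change -2.49, limma adjusted p = 4.79e-05), while the mitochondrial form Mdh2 was at 250 and 235 FPKM against 134, 165 and 151 and was not called, though it was called higher under both scalings and with only the 5 libraries in the fit. Cytosolic isocitrate dehydrogenase Idh1 was at 2.35 and 1.88 FPKM against 20.2, 10.4 and 19.5, whereas Idh3a, a subunit of the mitochondrial enzyme of the cycle, was at 45.5 and 36.1 FPKM against 13.6, 9.41 and 13.6 (log2 change 1.67, limma adjusted p = 0.000547). Other mitochondrial isocitrate dehydrogenase genes were lower: Idh2 was at 15.4 and 10.2 FPKM against 39.7, 37 and 49.3 (log2 change -1.66, limma adjusted p = 0.000986), and Idh3g, another subunit, at 29.7 and 27.6 FPKM against 70.3, 57.4 and 77.1 (log2 change -1.22, limma adjusted p = 0.00333). Citrate synthase (Cs) was level, at 45 and 44.7 FPKM against 49.3, 42.6 and 39.9.

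**Figure D4:**
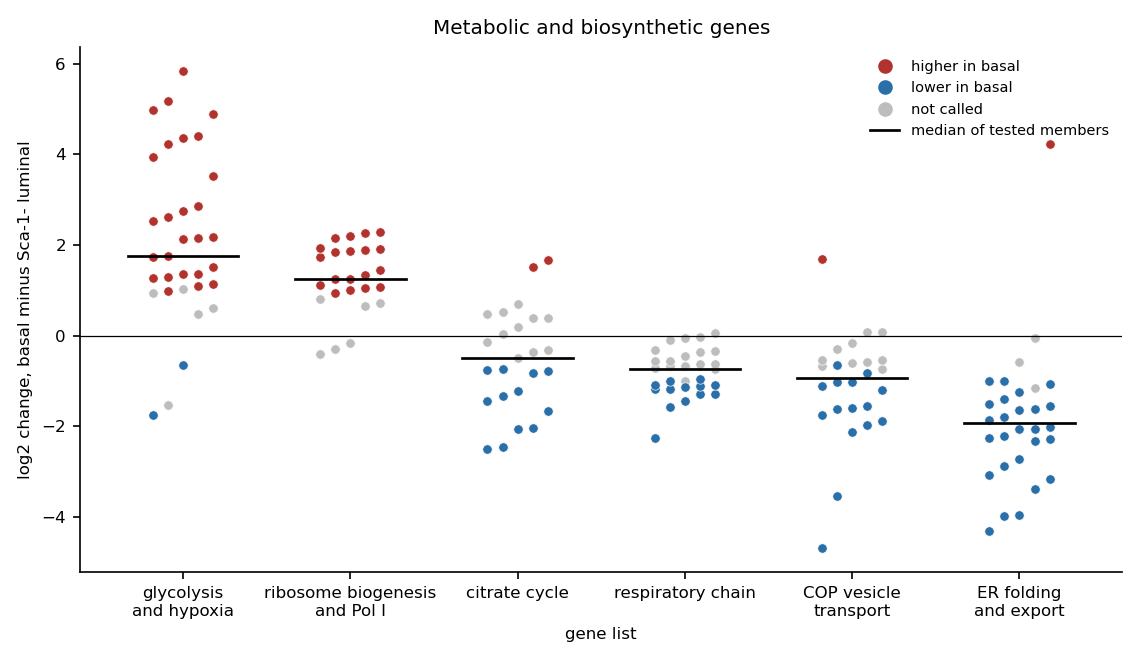
Log2 change, basal minus Sca-1- luminal, of each tested gene in 6 lists of metabolic and biosynthetic genes, red where called higher in basal libraries, blue where called lower and grey where not called. The black line is the median of the tested members, which is 1.76 for glycolysis and hypoxia and -1.93 for ER folding and export.

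Genes for making ribosomes were higher in 19 of 25, with none lower and a median of 1.25. Nucleolin (Ncl), an abundant nucleolar protein, was at 173 and 139 FPKM against 36, 40.1 and 27.2 (log2 change 2.16, limma adjusted p = 0.000393). Polr1b, the second largest subunit of RNA polymerase I, was at 22 and 17.8 FPKM against 3.71, 2.66 and 3.58 (log2 change 2.28, limma adjusted p = 9.51e-05). Basal values were clear of the luminal range in both. Myc, which drives such genes in many cells, was at 232 and 141 FPKM against 173, 109 and 58, and was not called (log2 change 0.81, limma adjusted p = 0.194). The D-type cyclins, which link growth signals to cell cycle entry, rose: Ccnd1 was at 54.8 and 116 FPKM against 6.82, 8.45 and 10.3, and Ccnd2 at 46.6 and 40.6 FPKM against 2.59, 2.97 and 2.26. The mitotic topoisomerase Top2a was low in all 5 libraries, at 0.617 and 0.168 FPKM against 2.74, 1.33 and 2.72. Of 15 cell cycle genes tested, 7 were higher and 1 lower (3 without luminal replicate 2), and their median was -0.06, with 0.11 under quantile normalization and 0.99 over the 13 genes tested under median-of-ratios scaling. Trp53 was at 45.3 and 42.3 FPKM against 10.8, 8.88 and 9.64 (log2 change 2.06, limma adjusted p = 7.08e-05).

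Genes for polyamines, for zinc, which the prostate accumulates, and for redox control were called in both directions. Their shares were not far from those of all genes tested (20.1% higher and 26.0% lower). Of 16 polyamine genes, 3 were higher, 2 lower and 11 not called. Arg2, which makes the polyamine precursor ornithine, was at 7.74 and 4.47 FPKM against 82.8, 54.3 and 79.6 (log2 change -3.38, limma adjusted p = 0.00067), while spermine oxidase (Smox) was at 158 and 258 FPKM against 22.4, 34.8 and 9.62 (log2 change 3.29, limma adjusted p = 0.00135). The zinc exporter Slc30a2 was at 1.37 and 0.684 FPKM against 20.4, 15.9 and 29.4 (log2 change -3.47, limma adjusted p = 8e-05). In all 3 genes the groups were apart, but the metallothioneins Mt1 and Mt2, which bind zinc, overlapped between groups (Mt1 at 7850 and 6439 FPKM against 9339, 17202 and 7564). Peroxiredoxin 6 (Prdx6) was at 172 and 138 FPKM against 2503, 2426 and 3726 (log2 change -4.19, limma adjusted p = 2.95e-05), and Gsto1, a glutathione transferase, at 1004 and 1123 FPKM against 129, 177 and 117 (log2 change 2.93, limma adjusted p = 0.00381). Of 27 glutathione and antioxidant genes, 8 were higher (5 without basal replicate 2) and 7 lower, and of 15 zinc and metallothionein genes 5 were lower and 3 higher (0 without basal replicate 1).

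Growth factor genes divided by ligand. Of 14 genes of the EGF family and its ErbB receptors, 9 were higher and 2 lower, with a median of 2.86. Egf itself was one of the lower genes, at 1.93 and 1.7 FPKM in basal and at 92.9, 76.3 and 106 FPKM in luminal libraries (log2 change -5.03, limma adjusted p = 7.9e-06). Other ligands of the same receptor were higher: Tgfa was at 78.2 and 54.4 FPKM against 5.22, 4.46 and 2.27 (log2 change 3.78, limma adjusted p = 0.000121), and Hbegf at 521 and 565 FPKM against 88.3, 115 and 36.1 (log2 change 2.9, limma adjusted p = 0.00106). None of these ligands overlapped between groups. The receptor Egfr was at 132 and 125 FPKM against 13.1, 14.9 and 6.34 (log2 change 3.45, limma adjusted p = 0.000156), and its feedback inhibitor Errfi1 at 1138 and 780 FPKM against 191, 170 and 49.1 (log2 change 3, limma adjusted p = 0.003). Erbb3, a receptor for neuregulins, was at 1.54 and 0.894 FPKM against 7.92, 6.21 and 7.04 (log2 change -1.87, limma adjusted p = 0.000661), although the neuregulin Nrg1 was at 45.4 and 25.1 FPKM against 4.16, 2.3 and 1.64. Fgfr2, an epithelial receptor for stromal fibroblast growth factors, was at 66.6 and 33.8 FPKM against 5.15, 2.48 and 5.29 (log2 change 3.24, limma adjusted p = 0.000212). Dusp6, a phosphatase induced by the ERK pathway, was at 242 and 140 FPKM against 9.85, 8.35 and 4.37 (log2 change 4.5, limma adjusted p = 0.000109). Of 18 FGF pathway genes 10 were higher and none lower, but only 3 were higher without basal replicate 1.

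Notch ligands were high in basal libraries. Dll1 was at 53.4 and 32.9 FPKM against 1.38, 0.651 and 0.455 (log2 change 4.59, limma adjusted p = 2.44e-05). Jag1 was at 45.5 and 44.8 FPKM against 1.95, 1.4 and 2.09 (log2 change 4.05, limma adjusted p = 0.000134), and Jag2 at 38.2 and 17.9 FPKM against 1.37, 0.753 and 0.449 (log2 change 3.9, limma adjusted p = 4.79e-05). All basal values were more than 10 times the luminal ones. The receptor Notch1 was at 13.5 and 9.6 FPKM against 3.88, 4.11 and 2.96 (log2 change 1.43, limma adjusted p = 0.0021). The target gene Hes1 was at 81.9 and 68.1 FPKM against 53.7, 45.6 and 63.1 and was not called (log2 change 0.47, limma adjusted p = 0.202). Of the 15 Notch pathway genes tested, 7 were higher and 1 lower (median 0.79). The hedgehog ligand Shh was at 13.9 and 10.5 FPKM against 0.908, 0.157 and 0.315 (log2 change 3.19, limma adjusted p = 0.000437). The pathway's target Gli1 was at 0.279 and 0.308 FPKM in basal libraries and was not called. Of 11 hedgehog genes tested 3 were higher (5 under either scaling) and none lower, against 20.1% and 26.0% of all genes tested.

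In the TGF-beta family, 9 of 28 tested genes were higher and 1 lower (median 0.65). Inhba, which encodes the activin A subunit, was at 145 and 209 FPKM against 5.4, 4.27 and 0.476 (log2 change 5.57, limma adjusted p = 0.000554). Its antagonist follistatin (Fst) rose with it, at 44.3 and 51.7 FPKM against 3.38, 4.19 and 1.15 (log2 change 3.74, limma adjusted p = 0.00173). Tgfb1 was at 36.6 and 58.1 FPKM against 2.59, 2.04 and 1.31 (log2 change 4.01, limma adjusted p = 0.000175). The lower gene was the BMP receptor Bmpr1b, at 1.16 and 0.961 FPKM against 32, 15.4 and 43.4 (log2 change -3.81, limma adjusted p = 0.000214). The targets Id1 and Id3 overlapped between groups and were not called.

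**Figure D5:**
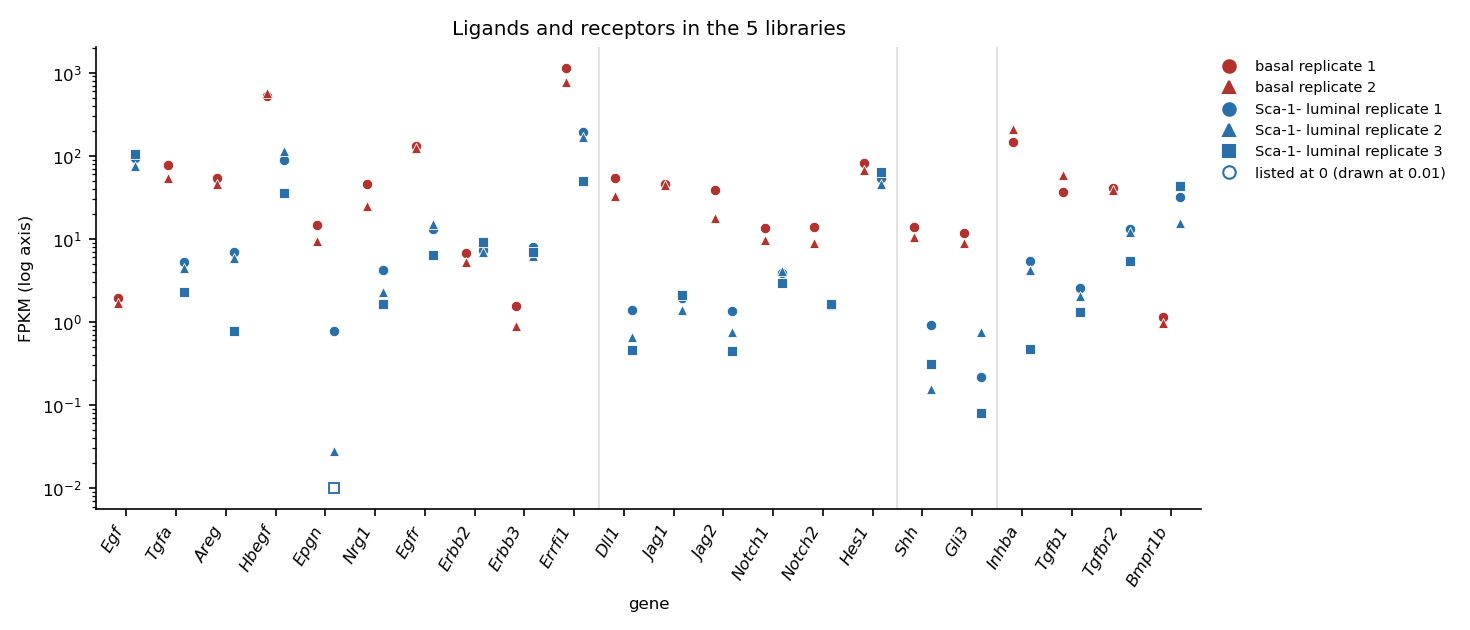
FPKM on a log axis of 22 ligands, receptors and targets of the EGF, Notch, hedgehog and TGF-beta families in each of the 5 libraries, basal in red and Sca-1- luminal in blue. Egf, Erbb3 and Bmpr1b are lower in both basal libraries, and most other genes are higher, such as Dll1 at 53.4 and 32.9 FPKM against at most 1.38.

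Genes of axon guidance, which also sort cells in epithelia, were higher in 19 of 36 and lower in 2 (median 1.27). The ephrin receptor Epha2 was at 64.5 and 69.5 FPKM against 2.77, 3.13 and 1.08 (log2 change 4.41, limma adjusted p = 0.000122), and the ephrin ligand Efnb1 at 43.6 and 42.9 FPKM against 3.43, 3.73 and 4.59 (log2 change 3.18, limma adjusted p = 2.48e-05). The semaphorin Sema4a was lower, at 14.1 and 11.1 FPKM against 52.9, 55.9 and 55.5 (log2 change -2.05, limma adjusted p = 0.000164). Libraries of a group were close together in all 3. Of 23 Wnt ligands and receptors, 8 were higher and 1 lower, but 2 to 5 were higher when any of the 5 libraries was left out or the filter on low values was dropped. The noncanonical receptor Ror2 was at 13 and 7.06 FPKM against 0.531, 0.212 and 0.631 (log2 change 2.88, limma adjusted p = 0.000121), and the Wnt target Sp5 at 0.578 and 0.234 FPKM against 7.23, 2.56 and 16.6 (log2 change -2.52, limma adjusted p = 0.00377).

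Chemokines and interleukins were higher in 16 of 29 (9 without basal replicate 1) and lower in 3, with a median of 1.93. The list summed to 1693 and 1317 FPKM in basal, 171 to 352 FPKM in luminal and 26938 and 22171 FPKM in stromal libraries, highest in the stromal libraries. Ccl20, which attracts cells bearing CCR6, was at 35.9 and 30.3 FPKM against 1.52, 0.894 and 0.141 (log2 change 4.27, limma adjusted p = 0.000125). The cytokine gene Lif was at 68.2 and 72.6 FPKM against 3.57, 3.6 and 0.658 (log2 change 4.45, limma adjusted p = 0.00268). Il15, which sustains natural killer cells, was lower, at 0.861 and 0.939 FPKM against 15, 9.65 and 21.9 (log2 change -3.05, limma adjusted p = 0.000105), as was Il18 at 0.964 and 0.874 FPKM against 6.46, 7.05 and 7.9. Beta-2 microglobulin (B2m), the light chain of MHC class I, was at 563 and 550 FPKM against 3740, 3125 and 4402 (log2 change -2.74, limma adjusted p = 0.000723), while the heavy chain genes H2-K1 (308 and 401 FPKM against 317, 362 and 301) and H2-D1 overlapped between groups. MHC class I genes are near copies of each other, so reads may have been shared among them. The share of interferon response and MHC class I genes called lower was near that of all genes tested (26.0% lower and 20.1% higher). Of 24 interferon response and MHC class I genes 7 were lower (4 without basal replicate 1 or without luminal replicate 3) and none was higher.

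Genes of extracellular proteolysis and of prostaglandins were called in both directions, as were all genes tested (20.1% higher and 26.0% lower). The membrane protease Mmp14 was at 144 and 221 FPKM against 5.87, 8.86 and 5.12 (log2 change 4.59, limma adjusted p = 0.00045), opposite to the secreted Mmp7. The urokinase receptor Plaur was at 784 and 1412 FPKM against 78.2, 143 and 6.57 (log2 change 4.57, limma adjusted p = 0.00547). Of 29 genes of proteases, their inhibitors and coagulation, 8 were higher and 4 lower (2 without either basal library). The prostaglandin synthase Ptgs2 (135 and 234 FPKM against 12.9, 9.11 and 3.26, log2 change 4.41, limma adjusted p = 0.00367) and the prostaglandin carrier Slco2a1 (155 and 151 FPKM against 7.96, 2.9 and 3.74, log2 change 4.81, limma adjusted p = 1.94e-05) were higher. The reductase Ptgr1, which inactivates prostaglandins, was lower at 3.28 and 4.04 FPKM against 28.7, 29.6 and 29.9 (log2 change -2.71, limma adjusted p = 0.00083). Of 16 prostaglandin genes 6 were higher and 4 lower (2 without basal replicate 2 or without luminal replicate 3). The iron-binding defence protein Lcn2, a gene described from proximal luminal cells, was at 1143 and 1704 FPKM against 52.5, 58.8 and 45 (log2 change 4.73, limma adjusted p = 8.04e-05). Another such gene, Ly6d, was at 76.5 and 44.9 FPKM against 1.78, 2.69 and 0.774 (log2 change 4.5, limma adjusted p = 0.000674). Of 15 proximal luminal genes 6 were higher (3 without basal replicate 2) and 3 lower.

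Some genes were listed at 0 in every library of one group. Of the called genes, 47 were listed at 0 in all 3 luminal libraries and 95 in both basal libraries. The actin regulator Cap1 (38.3 and 47 FPKM in basal libraries) and the elongin subunit Elob (269, 255 and 279 FPKM in luminal libraries) are among them. Because most cells use such genes, a value of 0 can be a missing estimate, and no fold change is given for them. Elob lost its call in 6 of 15 alternative settings.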

How the data were processed

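RNA was measured in 10 libraries, made with random and poly(dT) priming (NuGEN Ovation, then Illumina TruSeq) and sequenced on a HiSeq, per the labels' protocols. Whether the libraries keep the strand is not given in the sources used here, so overlapping and antisense genes, and near copies such as the Svs, Krt6, hemoglobin and MHC genes, are uncertain. The submitters' processing notes name bcl2fastq 1.8.3, TopHat, Cufflinks and the build mm10. The deposited values are FPKM per UCSC transcript, per the file headers, 1 file per library. The names of genes were assigned here by mm10 locus from GENCODE M21 and RefSeq GRCm38.p6, for 52975 of 63241 transcripts (83.8%). Transcripts under 300 nt were left out and FPKM was summed per gene; 7 genes with an estimate that was not made were left out.

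Per gene, log2(FPKM + 1) was fitted in limma 3.58.1 (R 4.3.3) where 2 libraries or more reached 1 FPKM, with a mean for each of the 4 groups, eBayes with trend and 6 residual degrees of freedom. Groups were taken from the cell type label, and libraries were numbered in listed order. Depth was estimated from the steps of low FPKM values, of which 90.4% to 94.7% lay within 0.05 of a whole fragment; as this held for isolated transcripts only, no count test was run. The test was checked on simulated data. Python 3.11.15, pandas 2.3.3 and matplotlib 3.10.9 served for tables and plots.

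The comparison, the gene lists and the alternatives were chosen with earlier results of these data known. Genes named were drawn from the markers and sort genes, the 15 largest changes in each direction at a mean of at least 10 FPKM, genes listed at 0 in one group, and in each list the called members with the largest change and the uncalled members with the highest mean; not all of these are printed. Ankrd37, Col1a1, Copz1, Dlk2, Egr1, Ero1lb, Fkbp5, Foxa1, Gli1, Hbegf, Hif1a, Hspa1a, Itgb1, Myh11, Pdia6 and Tgm4 fall outside this rule and were chosen after their values were seen. Some listed genes are not reported here.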

Additional observations from a re-analysis of the deposited data

How the results depend on the processing

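The count of 5732 calls ranged from 4672 (5 FPKM filter) to 6374 (without the Sca-1+ luminal libraries) over 10 alternatives of pseudocount, filter, scaling, model and library set. When each of the 5 libraries was left out, calls ranged from 3675 (without basal replicate 1) to 5505, and 3696 remained without basal replicate 2; the lone basal library was then assumed to vary like the other groups. Of the calls without basal replicate 1, 3627 were shared with the full set. No gene called in both changed sign in any of the 15 settings. The share of calls higher in basal libraries was 43.7%, 49.4% under median-of-ratios scaling and 48.7% under quantile normalization, and between 37.6% and 44.7% with 1 library left out; under both scalings the median change moved from -0.05 to 0.05. Over 927 named or listed genes in 15 settings, 12859 values kept their side of the threshold, 554 lost the call, 230 gained it and 0 reversed. A reversal was counted only for genes called in the full set or in the setting. For genes called in neither, direction was not compared. No paired analysis was possible because the labels carry no replicate numbers. The median standard error over all genes tested was 0.309 on the log2 scale.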

Other observations

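Among the uroplakins, membrane proteins of the bladder lining, Upk1a and Upk1b were lower in basal libraries, and Upk2, Upk3a and Upk3b were not called. Upk1a was at 4.66 and 8.48 FPKM in basal and at 192, 153 and 192 FPKM in luminal libraries (log2 change -4.61, limma adjusted p = 3.75e-05), and Upk1b at 9.06 and 5.71 FPKM against 86.8, 70.8 and 101 (log2 change -3.39, limma adjusted p = 0.000288). Of 10 urothelial genes tested 3 were lower and 2 higher, shares near those of all genes tested (26.0% lower and 20.1% higher). The list summed to 54.9 and 37.5 FPKM against 335, 253 and 373.

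Of 23 transporters of nutrients, 8 were higher in basal libraries, 5 lower (3 without basal replicate 1) and 10 not called. For comparison, 20.1% of all genes tested were higher and 26.0% lower. The insulin-responsive glucose transporter Slc2a4 was at 17.3 and 18.7 FPKM against 0.373, 0.683 and 0.59 (log2 change 3.62, limma adjusted p = 2.75e-05), while Slc2a12 was listed at 0 in both basal libraries and at 8.46, 2.24 and 7.6 FPKM in luminal ones. The lactate transporter Slc16a1 was at 67.9 and 47.2 FPKM against 4.95, 3.46 and 1.19 (log2 change 3.9, limma adjusted p = 0.00249), and its relative Slc16a7 at 7.31 and 3.69 FPKM against 30.9, 21.5 and 42.8 (log2 change -2.34, limma adjusted p = 0.00139).

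The fatty acid desaturase Scd2 was at 15.9 and 6.3 FPKM against 92.2, 50.3 and 108 (log2 change -2.86, limma adjusted p = 0.000494). Lipid synthesis genes were called in both directions, as were all genes tested (20.1% higher and 26.0% lower). Of 27 cholesterol and fatty acid genes 9 were higher (3 without basal replicate 1, 5 without luminal replicate 2) and 5 lower (3 without basal replicate 2).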
